A study of Mus musculus with 4 samples.

Results

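Capg, Gsn, Tmsb4x, Tmsb10, Cfl1, Pfn1, Coro1a, Lcp1, Actg1 and Actb are 10 genes of actin and of proteins that bind it, and they were taken by symbol from the 23995 gene symbols of an RNA-seq table of mouse blood monocytes. They were selected on a measured value: Capg was higher in RBP-J-deficient Ly6Clo monocytes, and the others were added as further genes of the actin cytoskeleton, with Actb kept only as a caution because its estimate failed in 2 libraries. The Ly6Clo genotype values below are therefore a description, with no test. Levels are FPKM, the fragments counted per kilobase of transcript and scaled to the size of the library, so genes can be compared per length. All 10 reached 1 FPKM in some library, as did 10240 genes in all.

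The study compared Ly6Chi and Ly6Clo blood monocytes of control mice, Rbpj+/+ with Lyz2 cre/cre (titled WT in the labels, with the genotype Lyz2-Cre), with those of RBP-J-deficient mice, Rbpj fl/fl with Lyz2 cre/cre (RBP-Jfl/fl Lyz2-Cre in the labels). Both genotypes thus carry a Cre in the Lyz2 locus, which is active across myeloid cells and not in monocytes alone. The subsets were sorted by flow cytometry, and the number of mice behind each library is not given in the sources used here. Each of the 4 groups holds 1 library, so no difference below has a replicate library, and no p-value, standard deviation or interval is given.

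Actin exists as single molecules and as filaments that grow at the barbed end and shrink at the pointed end. Capping proteins such as Capg and Gsn close the barbed end, thymosins hold single actin molecules in reserve, profilin feeds them to growing ends, cofilin severs old filaments, coronins act where branched filaments are made and taken apart, and plastins bundle filaments. Monocytes use this machinery to crawl along vessel walls, to leave the blood and to engulf particles. RBP-J is the DNA-binding partner of Notch receptors and recognises DNA with the core TGGGAA.

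Rbpj, the deleted gene, was listed at 8.30 FPKM in control and 2.43 FPKM in deficient Ly6Clo monocytes, and at 14.4 FPKM in control and 2.85 FPKM in deficient Ly6Chi monocytes. It was thus lower in the deficient library of both subsets, by a log2 ratio of -1.44 and -2.0. By quantitative PCR, the study itself found Rbpj efficiently deleted in sorted blood monocytes. Of 10 genes that mark Ly6Chi monocytes, all 10 were at least 2-fold higher in the Ly6Chi than in the Ly6Clo library of control mice. All 10 Ly6Clo markers were at least 2-fold lower. Over all genes 7.75% were higher and 5.21% lower. The monocyte gene Csf1r, the receptor for the growth factor CSF1, was present in every library at 158 to 407 FPKM. Its highest level was in control and its lowest in deficient Ly6Clo monocytes, a log2 ratio of -1.36. The summed FPKM of a library ran from 711533 to 885652, highest in deficient Ly6Clo monocytes, and depth is unknown because the files hold no counts. Rescaling every library to the same sum (TPM) moved the median log2 ratio of all genes by -0.24 in the Ly6Clo and -0.09 in the Ly6Chi genotype comparison.

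The promoter of Capg is shown because Capg had the largest log2 ratio of the 9 genes with a valid estimate and the window holds the RBP-J core on the same strand at 2 places. RefSeq gives Capg 1 start site, and the 250 bases before it lie on the plus strand at chr6:72549397-72549646 (GRCm38.p6), inside the gene's span of chr6:72544391-72562983 in the annotation (GENCODE, GRCm38). Capitals mark TGGGAA, which was searched on both strands together with its reverse complement TTCCCA.

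Capg promoter: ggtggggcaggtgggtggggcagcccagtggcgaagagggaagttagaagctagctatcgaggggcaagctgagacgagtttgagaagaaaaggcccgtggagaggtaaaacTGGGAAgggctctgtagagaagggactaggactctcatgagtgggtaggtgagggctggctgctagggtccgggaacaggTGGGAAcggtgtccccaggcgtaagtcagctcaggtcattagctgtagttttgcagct

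The matches begin 138 and 58 bases before the start site. Of 32851 RefSeq promoter windows of the same length, 21.59% held at least 1 match and 2.77% held at least 2. A longer form, GTGGGAA, is found in 5.415% of the windows and occurs once in that of Capg, at the match nearer the start, and once in each of the 2 Gsn windows with a match. Windows were found for 9 of the 10 genes, 15 windows in all, and the 3 windows with a match belong to Capg and Gsn. The other capping gene, Gsn, has 3 start sites, and it is shown beside Capg because it went the other way in the Ly6Clo comparison. One match begins 217 bases before the first start site, inside the window chr2:35256109-35256358 and in reverse orientation. The other begins 89 bases before the last start site, inside the window chr2:35282130-35282379. Both windows are on the plus strand. Each is given with 12 bases on either side.

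Gsn, first start site: tcctgagtctccTTCCCActacctcaggtc

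Gsn, last start site: ggttggtcccagTGGGAAgggaacccagat

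These are matches of letters in reference sequence, and binding of RBP-J was not measured in the files used here.

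Capg caps the barbed ends of filaments and, unlike gelsolin, does not sever them. It was listed at 25.6 FPKM in control Ly6Clo, 410 FPKM in deficient Ly6Clo, 684 FPKM in control Ly6Chi and 701 FPKM in deficient Ly6Chi monocytes. Control Ly6Clo monocytes stood alone at the low end, and the other 3 libraries lay within 2-fold of each other. In Ly6Clo monocytes the deficient library was 15.5-fold higher, a log2 ratio of 3.95 on the (FPKM + 1) scale used throughout. This is the value that chose the gene. In Ly6Chi monocytes, which the choice did not use, the log2 ratio was 0.03, and it ran from -0.10 to 0.23 over the 6 ways of processing tried, being below 0 with both rescalings. Between the subsets, Capg was 25.8-fold higher in Ly6Chi than in Ly6Clo monocytes of control mice, and 1.71-fold higher where RBP-J was deficient. By level, Capg moved from rank 2908 in the control Ly6Clo library to rank 378 in the deficient one, and was at ranks 148 and 177 in the Ly6Chi libraries.

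**Figure D1:**
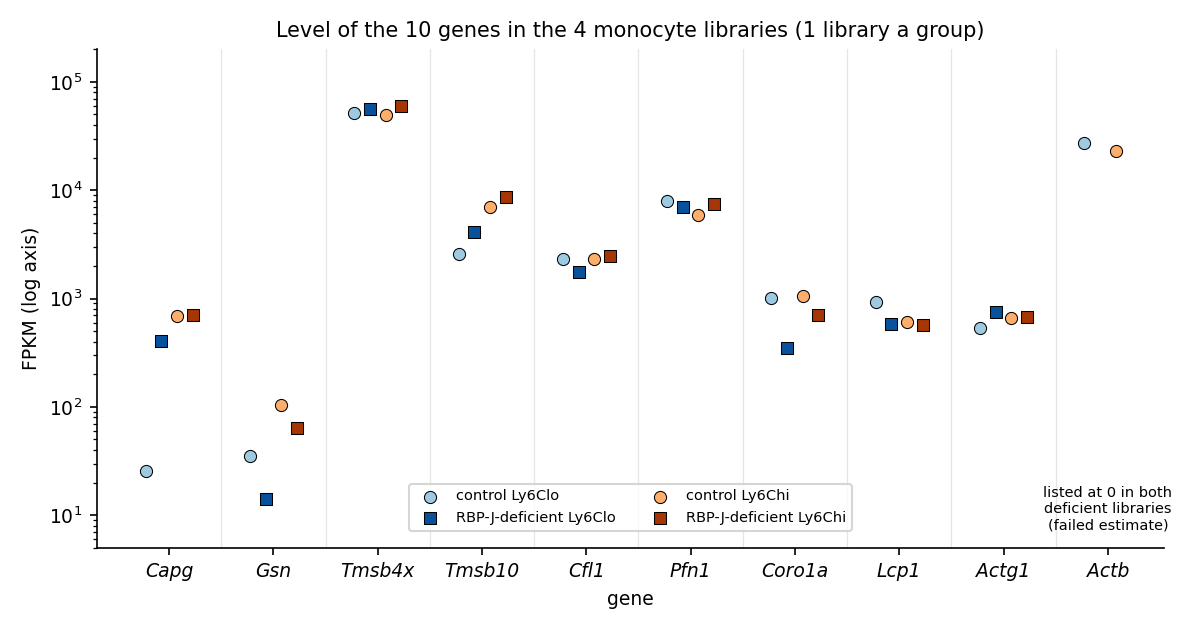
FPKM of the 10 genes (log axis) in each of the 4 libraries, 1 point a library, with Ly6Clo in blue, Ly6Chi in orange, control as circles and RBP-J-deficient as squares. Capg lies at 25.6 FPKM in control Ly6Clo monocytes and between 410 and 701 FPKM in the other 3 libraries, Tmsb4x lies between 48989 and 59536 FPKM, and the 2 values of Actb listed at 0 are not drawn.

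Gsn encodes gelsolin, which severs filaments and caps the new barbed ends when calcium rises. Its level was 35.3 FPKM in control and 14.2 FPKM in deficient Ly6Clo monocytes, against 105 FPKM in control and 64.2 FPKM in deficient Ly6Chi monocytes. The deficient library was the lower in both subsets, with a log2 ratio of -1.26 in Ly6Clo and -0.70 in Ly6Chi monocytes. Subtracting the trend of the log2 ratio with GC content brought the Ly6Clo value to -0.84, under 2-fold. Gsn was higher in Ly6Chi monocytes in both genotypes, with log2 ratios of 1.54 (control mice) and 2.11 (deficient mice). Capg and Gsn, which share the cap on the barbed end, therefore had log2 ratios of opposite sign in Ly6Clo monocytes, while both were higher in Ly6Chi than in Ly6Clo monocytes of control mice.

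Tmsb4x encodes thymosin beta 4, the main reserve protein for single actin molecules. It was the gene with the highest FPKM in every library, with 51253 and 56698 FPKM in control and deficient Ly6Clo monocytes and 48989 and 59536 FPKM in control and deficient Ly6Chi monocytes. It alone made up 6.4% to 7.8% of the summed FPKM of a library. Its log2 ratio was 0.28 in Ly6Chi monocytes and 0.15 in Ly6Clo monocytes, where the sign turned with 3 of the 6 ways of processing, the lowest value being -0.24. Its relative Tmsb10, thymosin beta 10, was listed at 2579 FPKM in control and 4144 FPKM in deficient Ly6Clo monocytes, and at 6991 FPKM in control and 8579 FPKM in deficient Ly6Chi monocytes. Tmsb10 was above 0 in both genotype comparisons, with log2 ratios of 0.68 and 0.30, and reached 1.18 in Ly6Clo monocytes once the GC trend was subtracted. By subset it was 2.71-fold higher in Ly6Chi monocytes of control and 2.07-fold higher in those of RBP-J-deficient mice. So the 2 thymosins differed in pattern: Tmsb4x was within 1.22-fold in all 4 comparisons, and Tmsb10 went with the Ly6Chi subset. Of the 100-base windows of the longest Tmsb10 transcript, 21.49% also occur in a transcript of another annotated gene, mostly Gm9844, so its level is uncertain.

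Pfn1 encodes profilin, which exchanges the nucleotide of actin and delivers it to growing ends. It was listed at 7898 FPKM in control and 7023 FPKM in deficient Ly6Clo monocytes, and at 5841 FPKM in control and 7422 FPKM in deficient Ly6Chi monocytes. These values lie within 1.35-fold of each other. The log2 ratio was -0.17 in Ly6Clo monocytes, turning to 0.34 with the GC trend subtracted, and 0.35 in Ly6Chi monocytes. Cfl1, the severing protein cofilin, was listed at 2293 FPKM in control and 1756 FPKM in deficient Ly6Clo monocytes, and at 2327 FPKM in control and 2475 FPKM in deficient Ly6Chi monocytes. Deficient Ly6Clo monocytes had the lowest level of the 4. Its log2 ratio was -0.39 in Ly6Clo and 0.09 in Ly6Chi monocytes, the latter turning to -0.01 when rescaled to TPM. Of the windows of its longest transcript, 12.37% are shared, mostly with the overlapping annotation of Snx32, which was itself listed at no more than 1.40 FPKM.

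Coro1a encodes coronin 1A, an actin-binding protein of blood cells known for its part in migration and survival of lymphocytes. It was listed at 1010 FPKM in control and 352 FPKM in deficient Ly6Clo monocytes, and at 1048 FPKM in control and 712 FPKM in deficient Ly6Chi monocytes. The deficient library was lower in both subsets, by a log2 ratio of -1.52 in Ly6Clo and -0.56 in Ly6Chi monocytes. The Ly6Clo value lay between -1.90 and -1.05 over the ways of processing, at least 2-fold lower in each. In control mice the subsets were nearly level, with a log2 ratio of 0.05, whereas in RBP-J-deficient mice Ly6Chi monocytes were 2.02-fold higher, or 0.63 on the log2 scale with the GC trend subtracted. Other blood cells express Coro1a too. Of the 4 B cell markers that reached 1 FPKM, 3 were at least 2-fold lower in deficient Ly6Clo monocytes, beside 11.1% of all genes. Cd22, the highest of those 3 in control Ly6Clo monocytes, went from 12.9 to 0.56 FPKM, while Cd79b, the most abundant B cell marker, went from 41.9 to 100.2 FPKM. The 8 B cell markers summed to 68.2 FPKM in control and 102 FPKM in deficient Ly6Clo monocytes, with 1 and 2 of them at 0. Their part in the Coro1a values was not tested. None of 8 T cell markers reached 1 FPKM in any library, and their sum was at most 2.72 FPKM.

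Lcp1 encodes L-plastin, the filament bundling protein of white blood cells. It was listed at 927 FPKM in control and 588 FPKM in deficient Ly6Clo monocytes, and at 605 FPKM in control and 571 FPKM in deficient Ly6Chi monocytes. Control Ly6Clo monocytes had the highest level, and the other 3 lay within 1.06-fold of each other. The log2 ratio was -0.66 in Ly6Clo and -0.08 in Ly6Chi monocytes, and the Ly6Clo value reached -1.04 when libraries were rescaled without the 10 genes. The locus given in the deposited table for Lcp1, chr14:75004109-75388146, is wider than the annotated gene, chr14:75131101-75230842, and 6.28% of its windows are shared with other annotated genes. Its level may hold reads of its neighbours.

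Actg1 and Actb encode the cytoplasmic actins gamma and beta. Actg1 was listed at 531 FPKM in control and 755 FPKM in deficient Ly6Clo monocytes, and at 661 FPKM in control and 677 FPKM in deficient Ly6Chi monocytes. Control Ly6Clo monocytes were lowest and deficient Ly6Clo monocytes highest, with a log2 ratio of 0.51, while that of Ly6Chi monocytes was 0.04 and fell below 0 when rescaled to TPM. Over the windows of its longest transcript, 51.05% also occur in 1 of 6 other annotated genes, so its level is uncertain. Actb was listed at 27260 FPKM in control Ly6Clo and 22795 FPKM in control Ly6Chi monocytes, the second highest level in each, and made up 3.80% and 3.20% of the summed FPKM. In both RBP-J-deficient libraries it was listed at 0 with the status HIDATA, by which Cuffdiff marks a locus with too many fragments to be estimated. No fold is given for Actb, and its values carry no information on the genotype. The summed FPKM of the deficient libraries lacks this gene.

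In order of level in control Ly6Clo monocytes the genes ran Tmsb4x, Actb, Pfn1, Tmsb10, Cfl1, Coro1a, Lcp1, Actg1, Gsn and Capg. Tmsb4x came first in all 4 libraries and Gsn had the lowest valid level in the 3 libraries other than control Ly6Clo. With 1 library a group, neighbours in this order cannot be separated from library-to-library spread. Together the 10 genes held 13.1% of the summed FPKM in control Ly6Clo and 12.7% in control Ly6Chi monocytes. The corresponding shares in the deficient libraries, 8.10% and 10.6%, are without Actb.

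A gene was counted as different when (FPKM + 1) differed at least 2-fold, and the pseudocount of 1 understates the difference of genes with a low level. In Ly6Clo monocytes, the comparison that chose Capg, 1 of the 10 genes was higher in the deficient library (Capg; 8.97% of all genes) and 3 were lower (Gsn, Coro1a and the failed Actb; 11.1% of all genes). In Ly6Chi monocytes 0 of the 10 were higher, against 2.64% of all genes, and 1 was lower, against 4.56%, which was Actb. Thus none of the 9 genes with a valid estimate differed 2-fold by genotype in Ly6Chi monocytes. The median log2 ratio of these 9 was -0.17 in Ly6Clo and 0.04 in Ly6Chi monocytes, beside 0.02 and 0.00 over all genes. With TPM the medians of the 9 became -0.47 and -0.07, beside -0.22 and -0.08 over all genes.

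With TPM the genes of the whole table at least 2-fold higher and lower in Ly6Clo monocytes went from 919 and 1133 to 537 and 1813. Among the 10 genes the counts were 1 and 3 both times, which says little on stability. The higher one is Capg, chosen for its value in this comparison, and the lower ones include Actb, whose listed zero fixes its place. In Ly6Chi monocytes the counts of the whole table went from 270 and 467 to 272 and 708.

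Between the subsets, 3 of the 10 genes were higher in Ly6Chi than in Ly6Clo monocytes of control mice (Capg, Gsn and Tmsb10), against 7.75% of all genes, and 0 were lower, against 5.21%. In RBP-J-deficient mice 3 were higher (Gsn, Tmsb10 and Coro1a), against 10.6% of all genes, and 0 were lower, against 8.41%. Tmsb10 and Coro1a fell under 2-fold in the deficient comparison with the GC trend subtracted, which left Gsn. With TPM the whole table went from 1083 and 861 to 1582 and 645 in this comparison. The 4 comparisons share libraries in pairs, so a value of 1 library enters 2 of them. Platelet markers, whose cells are rich in thymosin beta 4, gelsolin and profilin, moved with the subset: 7 of 10 were at least 2-fold higher in the control Ly6Chi library and 6 of 10 in the deficient one. Their summed level was 140 and 146 FPKM in control and deficient Ly6Clo monocytes, and 392 and 338 FPKM in the Ly6Chi libraries, with none at 0. The part of platelet RNA in the higher Gsn and Tmsb10 of the Ly6Chi libraries was not tested. Fewer cells of a type and less RNA per cell cannot be told apart in such bulk samples.

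Of the markers of other cells, those of dendritic cells, of which 4 of 8 reached 1 FPKM, summed to 195 and 238 FPKM in control and deficient Ly6Clo monocytes and to 473 and 419 FPKM in the Ly6Chi libraries, most of it Bst2. The erythroid markers summed to 412 FPKM in control and 188 FPKM in deficient Ly6Clo monocytes, and to 247 and 204 FPKM in the Ly6Chi libraries. Of the 3 that reached 1 FPKM, Hbb-bt and Alas2 were at least 2-fold lower in deficient Ly6Clo monocytes, at -1.58 and -1.56. Hbb-bs was higher, from 11.1 to 54.6 FPKM. Over all genes 11.1% were lower and 8.97% higher. Neutrophil markers summed to between 6.32 and 41.3 FPKM, led by Retnlg and with Mpo at 0 in every library. Of the 5 that reached 1 FPKM, 2 were at least 2-fold higher and 1 lower in deficient Ly6Chi monocytes, beside 2.64% and 4.56% of all genes. The higher ones were Camp and Ngp, from 0 to 5.52 and 4.87 FPKM, while Retnlg went from 35.1 to 24.4 FPKM. NK cell markers summed to between 1.66 and 8.47 FPKM, led by Klrk1 and with Eomes at 0 in every library. The part of these cells in the differences of the 10 genes was not tested.

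**Figure D2:**
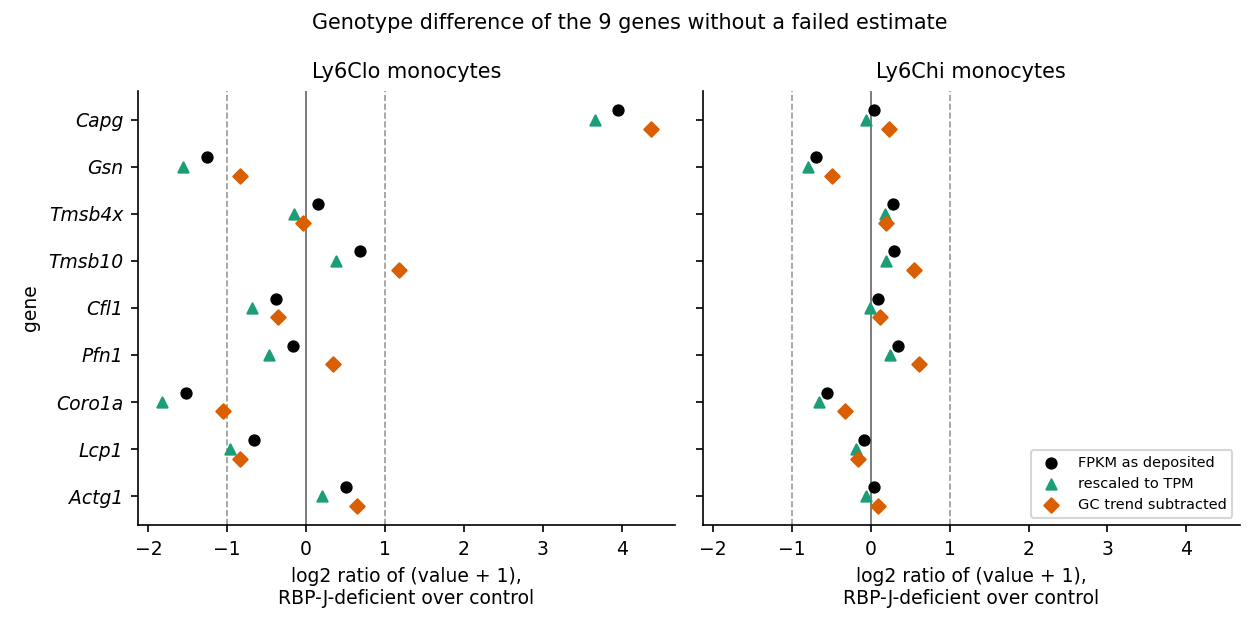
Genotype log2 ratios on the (value + 1) scale, deficient against control, of the 9 genes with a valid estimate in Ly6Clo (left) and Ly6Chi monocytes (right), from FPKM as deposited, rescaled to TPM, and with the trend with GC content subtracted; dashed lines mark 2-fold. Capg lies at 3.66 to 4.37 in Ly6Clo monocytes under these 3 settings and all 9 genes lie inside 2-fold in Ly6Chi monocytes.

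Capg was next set beside the genes that mark the Ly6Chi subset, because its level in deficient Ly6Clo monocytes lay near the Ly6Chi libraries. On the linear FPKM scale, Capg in deficient Ly6Clo monocytes stood 58.3% of the way from the control Ly6Clo to the control Ly6Chi level. Ccr2, the chemokine receptor by which monocytes leave the bone marrow, stood at 63.5% of the way, with 59.2 FPKM in control and 474 FPKM in deficient Ly6Clo monocytes. Tmsb10 stood at 35.5% and Gsn at -30.5%, away from the Ly6Chi level. The 10 Ly6Chi markers, which include Ccr2 and Ly6c2, the surface antigen that defines the subset, stood at -0.37% to 71.1% of the way, with a median of 3.27%. Capg lay below the 2 highest of them, Mgst1 at 71.1% and Ccr2, and above the other 8, which stood at no more than 3.85%. Mgst1 differed between the control subsets by a log2 ratio of only 1.02. As log2 ratios, the median of the 10 was 1.48 by genotype in Ly6Clo monocytes and 5.52 between the control subsets. For Capg these were 3.95 and 4.69. Ly6c2 itself went from 10.9 to 78.3 FPKM in Ly6Clo monocytes, with 2013 FPKM in control Ly6Chi monocytes. In deficient Ly6Clo monocytes 7 of the 10 Ly6Chi markers were at least 2-fold higher, beside 8.97% of all genes, and the summed level of the 10 went from 613 to 1524 FPKM, against 6232 FPKM in control Ly6Chi monocytes, with none at 0 in any library. The share of sorted Ly6Chi cells in the deficient Ly6Clo library was not measured. Of the 10 Ly6Clo markers, 5 were at least 2-fold lower in deficient Ly6Clo monocytes, 1 was higher and 4 lay within 2-fold. Over all genes 11.1% were lower and 8.97% higher. Nr4a1, a transcription factor the subset depends on, went from 618 to 65.6 FPKM, and Itgax, which encodes CD11c, from 33.7 to 3.10 FPKM. The study itself found Nr4a1 similar in Ly6Clo monocytes of both genotypes, by flow cytometry and by quantitative PCR. The lower Nr4a1 listed here rests on 1 library a group. For Ccr2 and Itgax, the study reported higher CCR2 and lower CD11c in deficient Ly6Clo monocytes by quantitative PCR and flow cytometry. Flow cytometry of Ly6Clo monocytes from transplanted bone marrow gave the same directions. Cd36, a scavenger receptor, was the higher of the Ly6Clo markers, from 426 to 945 FPKM, and Fcgr4, an Fc receptor, went from 857 to 807 FPKM.

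**Figure D3:**
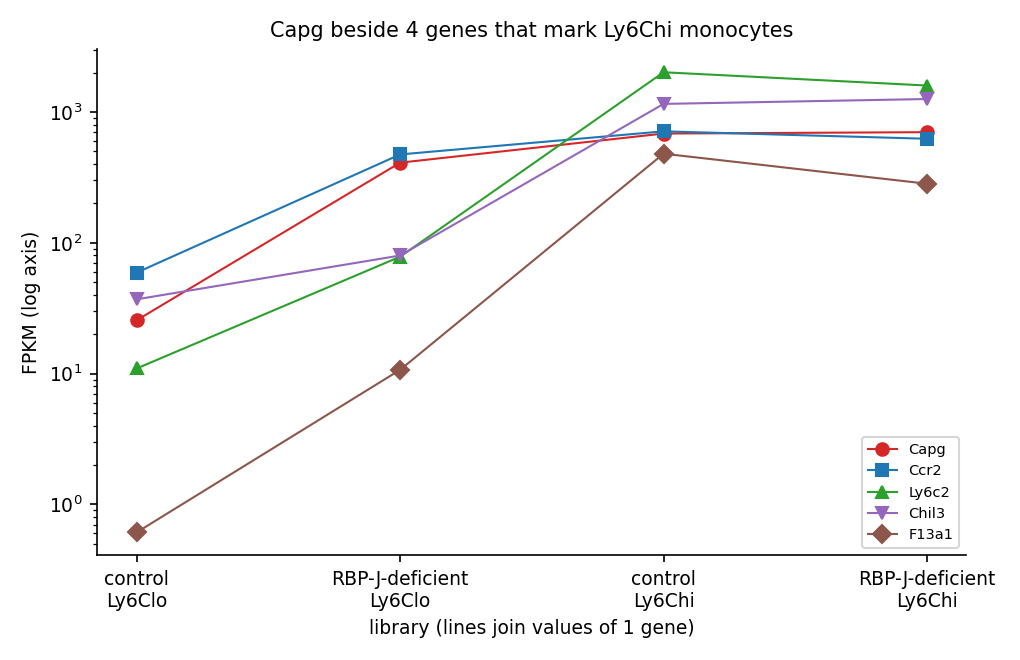
FPKM (log axis) of Capg and of Ccr2, Ly6c2, Chil3 and F13a1, which mark Ly6Chi monocytes, in the 4 libraries, with lines joining the values of 1 gene; Chil3 and F13a1 were chosen for this plot after their values were seen. Capg and Ccr2 in deficient Ly6Clo monocytes lie at 410 and 474 FPKM, near the Ly6Chi libraries, while Ly6c2, Chil3 and F13a1 lie at 78.3, 79.9 and 10.7 FPKM there, far below their Ly6Chi levels.

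The 5 genes whose pattern was nearest to that of Capg were found by the Euclidean distance between mean-centred log2(FPKM + 1) values over the 4 libraries, among 10239 other genes. They were AI839979 at a distance of 0.96, Ccr2 at 1.03, Ms4a8a at 1.08, 1700026L06Rik at 1.50 and Lmna at 1.51. Lmna encodes the nuclear lamins A and C. It was listed at 0.86 FPKM in control Ly6Clo monocytes and at 11, 11.4 and 13.9 FPKM in the deficient Ly6Clo, control Ly6Chi and deficient Ly6Chi libraries. As for Capg, the control Ly6Clo library was the one apart, which the search itself favours because it ranks genes by nearness to the Capg pattern. The likeness is over 4 values only, of which the libraries are the same for every gene.

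The other genes of the actin cytoskeleton were taken from 11 lists, which together with the 10 genes hold 87 genes that reached 1 FPKM in some library. These genes include Vim, which encodes an intermediate filament protein. Of the 77 that are not among the 10, 5 (6.49%) were at least 2-fold higher and 13 (16.9%) at least 2-fold lower in deficient Ly6Clo monocytes, beside 8.97% and 11.1% of all genes. Their median log2 ratio was 0.05, which became -0.03 with the GC trend subtracted and -0.24 with TPM. With the GC trend subtracted the counts were 4 and 12, of which 3 and 10 were genes counted before. Among all 10240 genes they were 809 and 994 with that setting. Gmfg, Pls3, Twf2, Flna and Myo1f then lay under 2-fold, and Fhod1, Eps8 and Ssh2 passed it. With TPM the counts were 3 and 23, which lacked Gmfg and Pls3 and held all 13 of the lower genes. All 10240 genes gave 537 and 1813 with TPM. In Ly6Chi monocytes 0 were higher and 3 (3.90%) lower, beside 2.64% and 4.56% of all genes, with a median of -0.08. The lists were drawn up with results of these data known, so the shares describe them only.

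**Figure D4:**
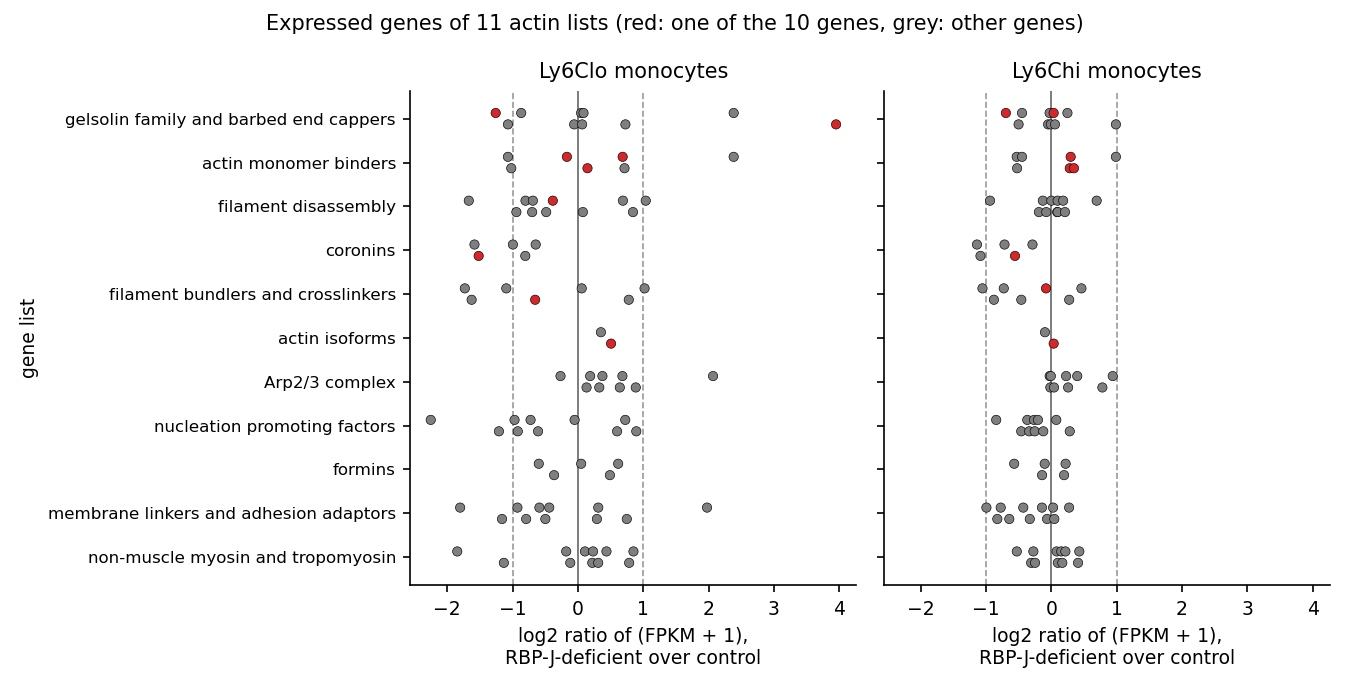
Genotype log2 ratios on the (FPKM + 1) scale, deficient against control, of each expressed gene of 11 actin lists, in Ly6Clo (left) and Ly6Chi monocytes (right); red points are among the 10 genes, without Actb, grey points are other genes, dashed lines mark 2-fold, and a gene on several lists is drawn in each. Capg is the point at 3.95 in the first list. All 5 coronins lie below 0 in both subsets, as do 4937 (Ly6Clo) and 5051 (Ly6Chi) of all 10240 genes. In Ly6Clo monocytes 8 of 9 genes of the Arp2/3 complex lie above 0, as do 5258 of all 10240 genes. The median of the 9 there was -0.01 with the libraries rescaled without the 10 genes.

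Among the barbed end cappers and gelsolin relatives, 10 genes were expressed and their median log2 ratio in Ly6Clo monocytes was 0.06, or -0.24 with TPM. Capza2, a subunit of the general capping protein, was the most abundant, with log2 ratios of 0.73 in Ly6Clo and 0.25 in Ly6Chi monocytes. The twinfilins, which bind single actin molecules and barbed ends, split: Twf1 went from 175 to 920 FPKM in Ly6Clo monocytes, a log2 ratio of 2.38, and Twf2 from 53.2 to 24.8 FPKM, a log2 ratio of -1.07 that became -0.66 with the GC trend subtracted. In Ly6Chi monocytes these were 0.99 and -0.45. Of the expressed gelsolin relatives other than Capg and Gsn, Flii and Svil had Ly6Clo log2 ratios of 0.08 and 0.05. Scin and Avil were listed at 0 in all 4 libraries and Vil1 at no more than 0.03 FPKM. Of 7 expressed binders of single actin molecules, Cap1, which recycles actin together with cofilin, was also lower in deficient Ly6Clo monocytes, at -1.02.

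Of 11 expressed genes of filament disassembly, 1 was at least 2-fold higher and 1 lower in deficient Ly6Clo monocytes. Over all genes the shares were 8.97% and 11.1%. The median log2 ratio of the list was -0.49. Gmfg, which takes apart filament branches, had a log2 ratio of 1.04, from 361 to 742 FPKM, or 0.88 with the GC trend subtracted. Ssh1, a phosphatase that activates cofilin, had -1.67, but from a level of 2.42 to 0.07 FPKM. Cfl1 lay near the median of its list.

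Of the 5 expressed coronins, 2 were at least 2-fold lower in deficient Ly6Clo monocytes (Coro1a and Coro1c; 11.1% of all genes) and 2 in Ly6Chi monocytes (Coro1c and Coro7; 4.56% of all genes). All 5 were below 0 in both comparisons, as were 4937 and 5051 of the 10240 genes, with a median of -1.0 in Ly6Clo and -0.72 in Ly6Chi monocytes, and all 5 were still below 0 with TPM and with the GC trend subtracted. Coro1b, which acts at branched filaments, went from 318 to 159 FPKM in Ly6Clo and from 398 to 242 FPKM in Ly6Chi monocytes. Coro1c went from 39.7 to 12.6 FPKM and from 53.5 to 24.7 FPKM, with log2 ratios of -1.58 and -1.09. Coro7 was 2-fold lower in Ly6Chi monocytes, at -1.14 or -0.99 with the GC trend subtracted, and at -0.81 in Ly6Clo monocytes. The summed level of the coronins was 1378 and 529 FPKM in control and deficient Ly6Clo monocytes, and 1521 and 991 FPKM in the Ly6Chi libraries.

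Of 7 expressed bundlers and crosslinkers, 1 was at least 2-fold higher and 3 lower in deficient Ly6Clo monocytes. Over all genes the shares were 8.97% and 11.1%. The median log2 ratio of the 7 was -0.66, the value of Lcp1. The plastin Pls3 was the higher one, with a log2 ratio of 1.02 from 2.04 to 5.16 FPKM, or 0.66 with the GC trend subtracted. The lower ones were the crosslinkers Actn4 and Flna, with -1.73 and -1.10, and Cotl1, a coactosin-like filament binder, with -1.63 in Ly6Clo and -1.05 in Ly6Chi monocytes. With the GC trend subtracted Flna had -0.86, and Cotl1 had -0.80 in Ly6Chi monocytes. Tagln2, the most abundant non-member, had 0.06 and -0.73. Of the 6 actin isoforms, Acta2, the smooth muscle form, was the other expressed one and did not exceed 3.32 FPKM.

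Of the Arp2/3 complex, which starts new filament branches, 8 of the 9 subunit genes were above 0 in Ly6Clo monocytes. So were 5258 of all 10240 genes. The median of the 9 was 0.37, which became 0.07 with TPM and -0.01 when rescaled without the 10 genes. Actr2 was the only one past 2-fold, from 584 to 2450 FPKM, a log2 ratio of 2.07, and had 0.94 in Ly6Chi monocytes. Arpc1b, the most abundant subunit, was the one below 0, at -0.27. Actr3 carries the status FAIL in the deposited table and its values are uncertain. Among 10 expressed genes that switch the complex on, 0 were at least 2-fold higher and 2 lower in deficient Ly6Clo monocytes. Over all genes the shares were 8.97% and 11.1%. The lower ones were Abi3 at -2.25 and Nckap1l at -1.21, both of the WAVE complex. The median was -0.67, and Hcls1, the most abundant, had -0.92. The formins, which grow unbranched filaments, had none past 2-fold among 5 expressed genes, with log2 ratios from -0.60 for Diap1 to 0.62 for Fhod1 in Ly6Clo monocytes. With the GC trend subtracted Fhod1 had 1.10. Fmnl1, the most abundant, had -0.37.

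Among 11 linkers and adhesion adaptors, Vim was at least 2-fold higher and Msn and Fermt3 lower in deficient Ly6Clo monocytes. Over all genes the shares were 8.97% and 11.1%. Vim, the intermediate filament protein vimentin, resembled Capg in direction, with 113 FPKM in control and 446 FPKM in deficient Ly6Clo monocytes and 416 and 503 FPKM in the Ly6Chi libraries. Msn, which ties filaments to the membrane, had -1.16, and Fermt3, the integrin activator kindlin-3, had -1.80. Among 11 myosin and tropomyosin genes 0 were at least 2-fold higher and 2 lower, beside the same 8.97% and 11.1% of all genes. The lower ones were the membrane motors Myo1f at -1.13, or -0.89 with the GC trend subtracted, and Myo1g at -1.85. Myl6, the most abundant, had 0.44.

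GC content moved with these ratios. Of the other genes on the actin lists, 5 were at least 2-fold higher in deficient Ly6Clo monocytes, the intermediate filament gene Vim among them. The GC content of their longest transcript was 40.3% to 48.2%, with a median of 43.9%. That of the 13 lower ones was 47.7% to 59.7%, with a median of 54.0%. The trend over 6329 genes ran the same way, from 0.55 at a GC content of 36% to -0.42 at the 57.1% of Capg. Capg thus lay above a negative trend, and its log2 ratio was 4.37 with the trend subtracted. Gsn, at the same GC content, and Coro1a, at 58.0%, lay below the trend, at -0.84 and -1.05 once it was subtracted. The part of GC content in the differences between genotypes was not tested beyond this subtraction.

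**Figure D5:**
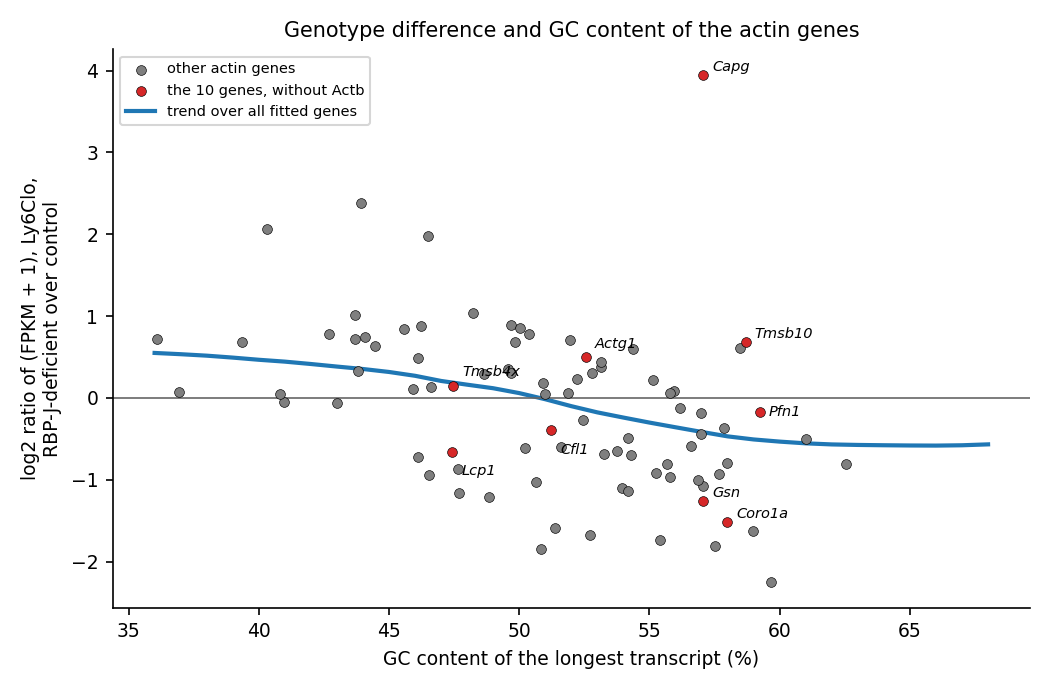
Genotype log2 ratio in Ly6Clo monocytes, deficient against control on the (FPKM + 1) scale, against GC content of the longest transcript in percent, for the expressed actin genes; the line is the lowess trend over the 6329 genes it was fitted on. Capg lies far above the line at 3.95, and Gsn and Coro1a lie below it at -1.26 and -1.52.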

How the data were processed

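RNA from sorted blood monocytes was sequenced with paired-end reads on a HiSeq2500. The authors deposited FPKM values per gene for the 4 libraries, in a Cuffdiff-style table of 6 pairs of libraries. The submitters' processing notes name CASAVA 1.8, TopHat2 2.1.0, Cufflinks 2.2.1 and mm10, with no role. The authors' fold changes, test statistics, p-values, q-values and significance calls were not used. Low FPKM values did not fall on whole-read steps, so no counts were recovered.

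Rows sharing a symbol were summed. The log2 ratio of (FPKM + 1) was computed with Python 3.11.15, numpy 2.4.6 and pandas 2.3.3 over genes that reached 1 FPKM in some library. A difference was counted at 2-fold. Libraries were grouped by the genotype and cell type labels. The study's own thresholds on (FPKM + 1), 5.7 and 0.2, were an alternative, as were pseudocounts of 0.1 and 5, rescaling to TPM or without the 10 genes, median centring, subtraction of a lowess trend with GC content (statsmodels 0.14.6, fraction 0.3, 6329 genes averaging 5 FPKM or more), a filter at an average of 10 FPKM, no filter, and leaving out failed estimates. GC content came from the longest GENCODE transcript and was found for 98.8% of the genes, older symbols being matched through RefSeq. The GC fit was tested on simulated data. Of the values listed in several pairs, 19 differed between pairs, none of a listed gene, and the first was used.

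Genes named are the 10, Rbpj, genes of the 11 lists at least 2-fold different by genotype (in a list with none, the highest and lowest) or most abundant in their list, the 5 nearest to Capg, and markers. Others, such as the remaining gelsolin relatives, were named after their values were seen. The 10 genes and all lists were chosen with earlier results of these data known. A further list is not reported here.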

Additional observations from a re-analysis of the deposited data

Results flagged for a closer look

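With 1 library a group, a result was singled out when its log2 ratio, RBP-J-deficient over control, had opposite signs in Ly6Clo and Ly6Chi monocytes. This was done for the 10 genes, the lists, and the other actin genes that the rule for naming genes had picked. The differences below are the Ly6Clo minus the Ly6Chi log2 ratio, and none of them was tested.

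Of the 10 genes, Cfl1 (-0.47) and Pfn1 (-0.51) were below 0 in Ly6Clo and above 0 in Ly6Chi monocytes, each by less than 2-fold, and so was the median of the 10 (-0.31). Without Actb, whose estimate failed, the difference of the medians was -0.20. With TPM both medians were below 0 in Ly6Chi monocytes too, at -0.07. The signs of both genes turned in one subset with some of the scalings, as given in the report. Among the lists, the median of the gelsolin family and barbed end cappers (0.0734), of the actin isoforms (0.45, the value of Acta2, since the failed Actb ranks below it) and of the formins (0.15) was above 0 in Ly6Clo and below 0 in Ly6Chi monocytes, and that of filament disassembly (-0.58) the reverse, for FPKM as deposited. With TPM the gelsolin and formin medians were below 0 in both subsets, at -0.24 and -0.19 in Ly6Clo monocytes, and so was that of filament disassembly, at -0.01 in Ly6Chi monocytes.

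Of the other genes, Ssh1 had the widest gap (-1.88), at no more than 2.42 FPKM. Tagln2 (0.79), Acta2 (0.45) and Fmnl1 (-0.56) differed by less. Of all 77 other actin genes 24 had opposite signs, 20 of them not picked by that rule. The widest gap among these 20 was that of Pfn2, with 0.71 in Ly6Clo and -0.52 in Ly6Chi monocytes, at no more than 1.37 FPKM in any library. Over all 10240 genes, 5258 were above 0 in the Ly6Clo and 5160 in the Ly6Chi comparison. How many of these had opposite signs was not computed, so the counts here do not set the actin genes apart.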

How the results depend on the processing

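Of 240 recomputed log2 ratios of the 10 genes, 217 kept their direction and their side of the 2-fold line. Of the others, 3 fell under it, 3 passed it and 17 moved otherwise. The 217 include all 6 values of Actb in each comparison. Where a deficient library enters, its listed zeros fix that outcome, so these values say nothing on stability. The lowest and highest Capg value in Ly6Clo monocytes were 3.59 and 4.37. No called value changed sign. No replicate could be left out and no paired analysis was possible because each group holds 1 library. Depth is unknown and sets no limit that could be computed. Where a value changed below, the cause was not tested.

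For the 10 genes, the median in Ly6Chi monocytes, 0.04, became -0.067 with TPM and -0.10 when rescaled without the 10 genes, and the median between subsets in control mice, 0.04, became -0.000153 with the GC trend subtracted. With that trend subtracted, 2 in place of 1 were higher in Ly6Clo monocytes and 1 in place of 3 was higher in Ly6Chi than in Ly6Clo monocytes of deficient mice. Over all 10240 genes, 809 and 972 were higher in these comparisons with the trend subtracted. With the study's thresholds of 5.7 and 0.2, 1 was lower in Ly6Clo monocytes, 1 was higher in Ly6Chi monocytes of control and 0 of deficient mice. Without failed estimates 0 were lower in Ly6Chi monocytes.

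For all genes in the Ly6Clo genotype comparison, the 919 higher became 511 with a pseudocount of 5, 537 with TPM, 476 without the 10 genes in the scale, 28 with the study's thresholds and 579 with a filter at a mean of 10 FPKM. The 1133 lower became 1746 with a pseudocount of 0.1, 457 with 5, 1813 with TPM, 2076 without the 10 genes, 69 with the study's thresholds and 524 with the mean FPKM filter. In Ly6Chi monocytes the 270 higher became 591 and 73 with the low and high pseudocount, 16 with the thresholds and 112 with the filter. The 467 lower became 933 and 101 with the pseudocounts, 708 with TPM, 814 without the 10 genes, 16 with the thresholds and 116 with the filter.

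Between subsets of control mice, the 794 higher became 366 with a pseudocount of 5, 102 with the thresholds and 312 with the filter, and the 533 lower became 877 and 241 with the pseudocounts, 88 with the thresholds and 261 with the filter. In deficient mice the 1083 higher became 1655 and 400 with the pseudocounts, 1696 without the 10 genes, 61 with the thresholds and 447 with the filter, and the 861 lower became 412 with a pseudocount of 5, 44 with the thresholds and 438 with the filter.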
